A study of Mus musculus with 15 samples.

Results

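The genes described here mark the later stretch of the kidney tubule, from the thick ascending limb of the loop of Henle through the distal tubule to the collecting duct. The list named 7 genes, Umod, Egf, Kcnj1, Aqp2, Aqp3, Calb1 and Klk1, and the array annotation gave them 12 probes. A gene was kept where a probe had a detection p-value under 0.01, meaning a signal above that of the negative controls, in at least 2 samples. This left 6 of the 7 genes and 10 of the 12 probes, out of 11648 kept genes on an array of 45281 probes. Calb1 did not pass. Illumina expression arrays measured total RNA of BALB/c mice in 5 groups: 3 healthy kidneys, 2 kidneys made fibrotic by unilateral ureteral obstruction (UUO, surgical closure of the ureter of 1 kidney), 3 healthy lungs, 3 lungs of mice with UUO surgery and 3 lungs made fibrotic by bleomycin instilled into the trachea. The labels name a different mouse for each replicate of a group, and for 4 of the mice both organs were sampled. Neither the time between surgery and sampling nor the age of the mice is given in the sources used here, and no genetic change is named for any group. For 1 healthy kidney the labels disagree, with lung as the tissue but kidney in the other fields, and it was taken as kidney.

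The thick ascending limb reabsorbs salt without water and so dilutes the tubular fluid and builds the salt gradient of the medulla. Potassium that leaves the cell through the channel Kcnj1 (ROMK) keeps the salt cotransporter Slc12a1 supplied, and the same cells secrete Umod, uromodulin, the most abundant protein of normal urine, and make the precursor of the growth factor Egf. Further along, the distal convoluted and connecting tubules reabsorb calcium, a step in which Calb1, calbindin-D28k, buffers the calcium inside the cell, and the connecting tubule releases the kinin-forming protease Klk1, tissue kallikrein. In principal cells of the collecting duct vasopressin sends the water channel Aqp2 to the surface that faces the urine, and water leaves on the blood side through Aqp3 and Aqp4.

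The sequences just upstream of the transcription start are shown for the 3 genes that fell in the obstructed kidney, Egf, Aqp2 and Aqp3, and for Umod, which did not pass the test. Each is 250 bases, written 5' to 3' on the strand of the gene and taken from the RefSeq promoter table of mouse build GRCm38. They lie at chr7:119479263-119479512 on the minus strand for Umod, chr3:129755323-129755572 on the minus strand for Egf (the first of 2 starts in the table), chr15:99578806-99579055 on the plus strand for Aqp2 and chr4:41098184-41098433 on the minus strand for Aqp3. Capitals mark matches, on either strand, to 4 motifs: TATAA, the core of a TATA box; GTTAAT, an HNF1 half-site; TGACG, a cAMP response element half-site; and AGATAA, one form of the site of GATA factors.
Umod: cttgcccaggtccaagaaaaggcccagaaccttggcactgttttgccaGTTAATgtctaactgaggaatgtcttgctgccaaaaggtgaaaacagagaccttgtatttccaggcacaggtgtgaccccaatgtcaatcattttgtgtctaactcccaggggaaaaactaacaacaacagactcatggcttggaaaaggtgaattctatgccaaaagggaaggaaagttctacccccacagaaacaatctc
Egf: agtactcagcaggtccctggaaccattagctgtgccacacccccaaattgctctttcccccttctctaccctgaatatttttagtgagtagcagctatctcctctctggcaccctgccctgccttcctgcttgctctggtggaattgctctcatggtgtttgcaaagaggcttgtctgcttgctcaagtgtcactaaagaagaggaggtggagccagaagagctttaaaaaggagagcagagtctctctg
Aqp2: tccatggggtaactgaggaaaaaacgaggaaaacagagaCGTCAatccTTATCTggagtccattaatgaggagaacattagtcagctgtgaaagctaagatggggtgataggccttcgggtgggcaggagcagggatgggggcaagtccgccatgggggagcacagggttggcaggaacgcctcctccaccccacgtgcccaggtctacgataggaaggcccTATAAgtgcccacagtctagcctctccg
Aqp3: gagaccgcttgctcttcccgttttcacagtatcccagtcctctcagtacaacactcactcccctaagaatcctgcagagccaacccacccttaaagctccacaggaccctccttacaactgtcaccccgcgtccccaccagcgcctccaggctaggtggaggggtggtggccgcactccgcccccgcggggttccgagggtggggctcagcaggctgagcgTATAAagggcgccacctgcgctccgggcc
TATAA began 28 bases before the start of Aqp2 and 29 bases before that of Aqp3, and 22.8% of the 32851 promoters in the table held it in a window of this length. The TGACG match of Aqp2 lay 211 bases before the start, on the opposite strand. Kcnj1, not printed, held the same motif 81 bases before its start, and 17.8% of promoters held it. The AGATAA match of Aqp2, also on the opposite strand, lay 202 bases before the start, with 9.99% of promoters holding the motif. Umod held GTTAAT 202 bases before its start, with 6.43% of promoters holding it. In these windows Egf and Klk1 matched none of the 4 motifs. The matches describe letters and say nothing of binding.

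Values are log2 intensities after background correction and quantile normalization, on which a probe without signal, such as that of Calb1, read 4.26 to 4.53. Between 32.4% and 41.5% of the probes of an array were above background, and the small number of arrays limits the precision. Several measured features of the samples go with the UUO label. Eif2s3y, from the Y chromosome, was at 8.89 to 9.25 in the 3 healthy kidneys and not above background in the UUO kidneys, while Xist, from the inactive X chromosome, was at 10.40 and 10.68 in the UUO kidneys and not above background in the healthy ones, so that sex and obstruction cannot be told apart. The lungs split too: Eif2s3y was at 9.24 to 9.62 in the healthy lungs and in bleomycin lungs 1 and 2, but not above background in bleomycin lung 3 and the lungs of UUO mice, where Xist was at 8.86 and at 11.19 to 11.66. Bleomycin lung 1 had Xist at 5.50 beside Eif2s3y. In the kidneys, Kdm5d, also on the list of sex-linked transcripts, was at least 1.48-fold lower in UUO kidney. Of 8 measured transcripts with a sex bias in mouse kidney, 2 rose in UUO kidney and 6 fell. Of all genes, 26% rose and 17% fell. The median change of the 8 was -3.60, against 0.11 over all tested genes. The rises were Slc7a12 and Cyp4a14, the latter at 6.41 to 7.12 in healthy and 11.48 and 10.65 in UUO kidneys. The falls with the smallest adjusted p were Cyp4b1 and Cyp2j13, the latter at 11.47 to 11.74 in healthy and 7.40 and 6.33 in UUO kidneys. Scgb1a1, the secretoglobin of airway club cells, was at 12.30 and 11.19 in the UUO kidneys and not above background in the healthy ones, and of 11 lung epithelial markers 7 and 6 were above background there against 2 to 3 in healthy kidneys. The median log2 intensity of these 11 markers was 7.54 and 6.42 in the UUO kidneys against 4.52 to 4.69 in healthy ones. Their summed intensity was 25780 to 32520 against 24850 to 28080. Napsa, at a mean of 14.55 in UUO and 14.67 in healthy kidneys, made up most of each sum. Of the 11, 4 rose, among them Scgb1a1 and Sftpd (at least 9.58-fold), where 26% of all genes rose. The 2 falls were Hopx (-0.62) and Cldn18, the latter with no kidney above background, where 17% of all genes fell. Fitted on the 5 kidneys alone, 3 rose and none fell. The 2 UUO kidneys also differed from each other: the summed intensity of 12 kidney injury markers was 16960 in UUO kidney 1 and 68540 in UUO kidney 2, against 3088 to 3977 in healthy kidneys. In the lungs, 7 of 7 liver transcripts were above background in healthy lung 3 and in UUO-mouse lung 1. What sex, lung transcripts and degree of injury contributed to the values below was not tested.

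In healthy kidney all 6 kept genes stood far above healthy lung. Umod was at least 554-fold higher, Egf at least 115-fold, Kcnj1 at least 52.2-fold and Aqp2 at least 61.8-fold, each a lower bound because the probe was not above background in any healthy lung (limma adjusted p of 3.73e-07, 1.93e-09, 2.77e-08 and 3.09e-10). The bound sets the kidney mean against the lowest signal above background on the lung arrays, or the probe's own value there if that is higher. Aqp3 was 27.9-fold higher (log2 difference ± SE of 4.80 ± 0.30, adjusted p = 3.96e-08) and Klk1 371-fold (8.54 ± 0.53, adjusted p = 3.54e-08). Each was above background in only 1 of the 3 healthy lungs, so the size of these folds depends on background values. Under other processing settings the log2 difference was 3.06 to 5.57 for Aqp3 and 6.51 to 9.47 for Klk1. All 6 passed as higher in kidney, as 29.8% of the 11648 tested genes did. For none of the 6 did the healthy kidneys and healthy lungs overlap, as for 33.1% of all genes. The 6 were listed as kidney tubule genes, so a higher level in kidney was built into their choice and is description only. Slc12a1, the salt cotransporter of the thick ascending limb, was at least 178-fold higher in healthy kidney, and 12 of the 13 other measured thick ascending limb genes were higher and none lower. Of 24 other genes of principal cells or of the vasopressin or aldosterone response 13 were higher and 9 lower, where 36.8% of all genes were lower. The sodium channel subunits Scnn1a and Scnn1b were among the lower ones (differences of -2.64 ± 0.21 and -2.13 ± 0.29).

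**Figure D1:**
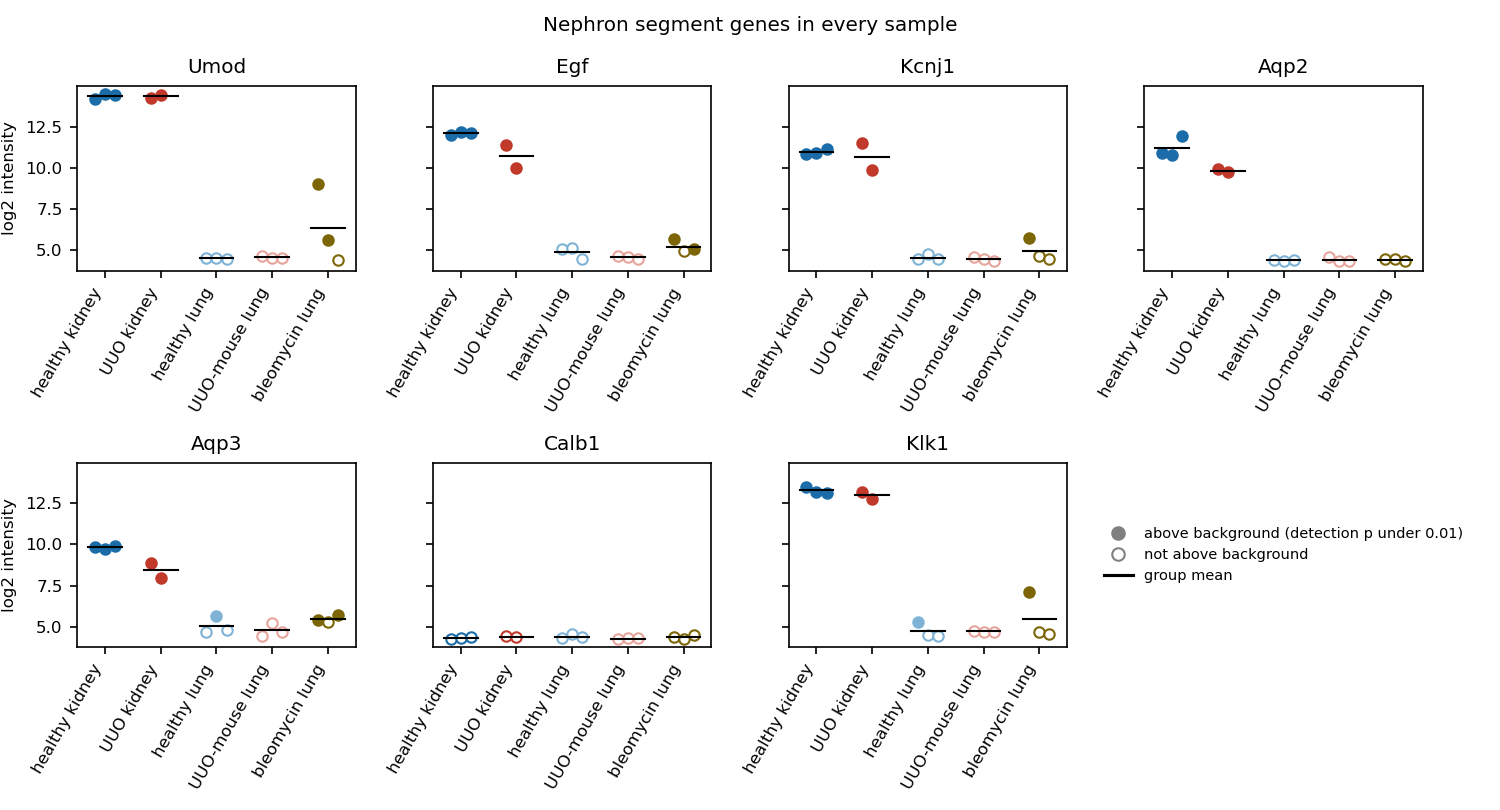
Log2 intensity of the probe used for each of the 7 genes (y axis) in every sample, by group (x axis); filled points are above background at a detection p under 0.01, open points are not, and bars are group means. Umod lies between 14.22 and 14.47 in all 5 kidneys, Egf, Aqp2 and Aqp3 are lower in both UUO kidneys than in every healthy one, and Calb1 shows only open points.

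Calb1, the calcium buffer of the distal tubule, gave no signal above background from its single probe in any sample. Its log2 intensity was 4.28, 4.33 and 4.38 in the healthy kidneys and 4.44 and 4.36 in the UUO kidneys, with detection p-values from 0.562 to 0.993. The lungs, at 4.26 to 4.53, overlapped the kidneys. Other transcripts of the same tubule stretch were measured in healthy kidney: Slc12a3, the thiazide-sensitive salt cotransporter, was at 10.57 to 10.77, and the calcium channel Trpv5 was above background in 2 of the 3 healthy kidneys and both UUO kidneys. The absence of signal is that of this probe, and Calb1 entered no test.

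In UUO kidney 3 of the genes were lower than in healthy kidney and 3 did not pass the test. The growth factor Egf and the water channels Aqp2 and Aqp3 fell between 2.62-fold and 2.66-fold, whereas uromodulin, the potassium channel Kcnj1 and tissue kallikrein did not pass. Of all 11648 genes tested, 43% passed in this comparison, 26% higher and 17% lower in UUO kidney, so that 3 falls among 6 genes is read against a background in which change was common. The median change of the 6 genes was -0.84, against 0.11 over all tested genes. In whole-organ RNA, fewer cells of a type and less RNA in each cell cannot be told apart.

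Among the thick ascending limb genes, Umod was at 14.22, 14.47 and 14.44 in the healthy kidneys and at 14.25 and 14.44 in the UUO kidneys, so the UUO values lay inside the healthy range. The difference was -0.03 ± 0.89 (95% interval -1.98 to 1.91, adjusted p = 0.983). The fit pools the spread of all groups, and Umod was at 9.03, 5.62 and 4.43 in the bleomycin lungs. Fitted on the 5 kidneys alone, the interval was -0.44 to 0.37, and without bleomycin lung 1 it was -0.61 to 0.55. The Umod probe ranked at the 99.9th percentile or above on every kidney array, with raw signals of 20737 to 24194 where the brightest probe of an array reached 30707 to 35050, and whether the scale is still linear there was not tested.

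Egf, whose membrane-bound precursor is made in the same segment, did fall. The healthy kidneys were at 12.01, 12.21 and 12.10 and the UUO kidneys at 11.42 and 9.98, without overlap, and both were above background throughout. UUO kidney 2 was the lower of the pair by more than the whole spread of the healthy kidneys. The difference was -1.41 ± 0.35 (2.65-fold; limma adjusted p = 0.00685), and groups without overlap and with UUO lower were found for 25.5% of all genes.

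Kcnj1, the channel that returns potassium to the loop's lumen, split the UUO kidneys. It was at 10.83, 10.93 and 11.14 in healthy kidneys, at 11.54 in UUO kidney 1 and at 9.85 in UUO kidney 2. The first UUO kidney was thus above every healthy kidney and the second below every one. The mean difference of -0.28 ± 0.43 did not pass (95% interval -1.22 to 0.66, adjusted p = 0.653).

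In the collecting duct, Aqp2 was the member whose 2 UUO kidneys lay closest together among those that fell. Its values were 10.93, 10.77 and 11.95 in healthy kidneys and 9.92 and 9.73 in UUO kidneys. Healthy kidney 3 stood above the other healthy kidneys, and both UUO kidneys were below all 3. The difference was -1.39 ± 0.27 (2.62-fold, adjusted p = 0.00129), and -1.02 without healthy kidney 3. Aqp4, the other water channel of the blood side, was likewise highest in healthy kidney 3, at 10.34 against 9.58 and 9.10.

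Aqp3, which lets water and glycerol out toward the blood, had 9.87, 9.71 and 9.92 in healthy kidneys and 8.90 and 7.95 in UUO kidneys. The groups did not overlap, and UUO kidney 2 was again the lower. The difference was -1.41 ± 0.34 (2.66-fold, adjusted p = 0.00507).

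Klk1, the kinin-releasing protease, was at 13.50, 13.20 and 13.15 in healthy kidneys and at 13.21 and 12.78 in UUO kidneys. UUO kidney 1 lay within the healthy range and UUO kidney 2 below it. The difference of -0.29 ± 0.59 did not pass (95% interval -1.58 to 1.00, adjusted p = 0.741). On the 5 kidneys alone the interval was -0.80 to 0.22 (adjusted p = 0.315).

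**Figure D2:**
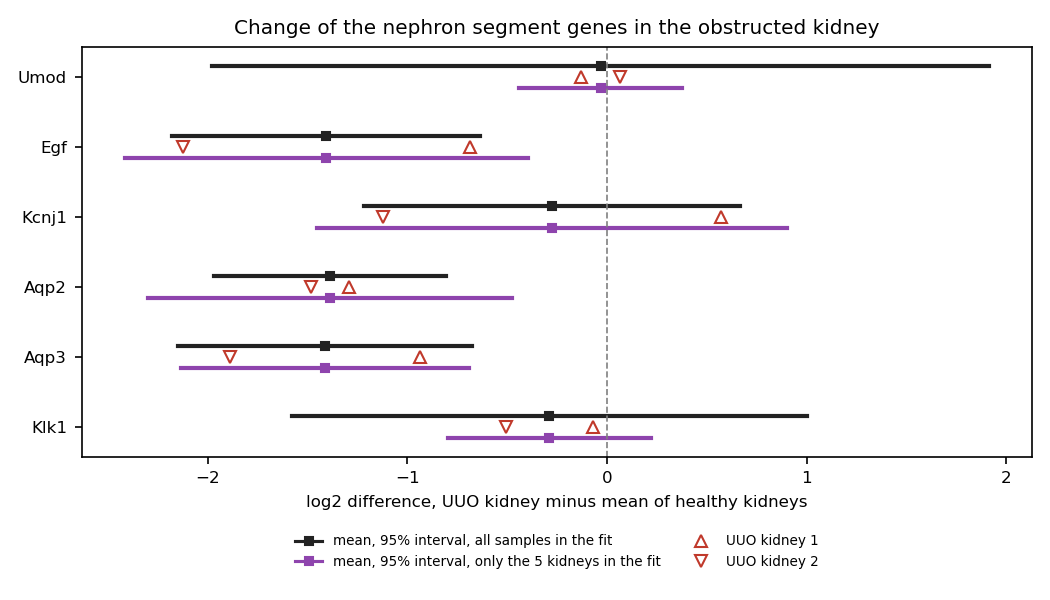
Log2 difference between UUO kidney and the mean of the healthy kidneys (x axis) for the 6 kept genes; squares are means with 95% intervals from the fit on all samples or on the 5 kidneys alone, and triangles are the 2 UUO kidneys. The intervals of Egf, Aqp2 and Aqp3 lie below 0 in both fits, those of Umod, Kcnj1 and Klk1 include 0, and the UUO kidneys lie on opposite sides of 0 for Kcnj1.

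How far these falls rest on 1 kidney was seen by leaving each UUO kidney out, with the lone one assumed to vary like the other groups. Without UUO kidney 2, Aqp2 still passed (-1.29, adjusted p = 0.0153), while Egf (-0.69, adjusted p = 0.108) and Aqp3 (-0.94, adjusted p = 0.0811) no longer did and Kcnj1 was at 0.57 (adjusted p = 0.303). Without UUO kidney 1, Kcnj1 passed as well (-1.12, adjusted p = 0.0387), beside Egf (-2.13), Aqp2 (-1.48) and Aqp3 (-1.89). Egf, Aqp2 and Aqp3 also passed when only the 5 kidneys were fitted (adjusted p of 0.0436, 0.0333 and 0.0156). Of all genes 41.5% passed without UUO kidney 1, 32.2% without UUO kidney 2 and 35.1% in the 5 kidneys alone, and the counts of gene groups below are read against these shares.

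Genes with several probes were not uniform. The second Umod probe was at 13.93, 13.83 and 13.96 in healthy kidneys and 14.16 and 14.20 in UUO kidneys. Here the UUO kidneys were above all healthy ones, yet the difference of 0.27 ± 0.78 did not pass (adjusted p = 0.816 over the 21048 kept probes, of which 43.8% passed). The second Aqp2 probe was at 9.08, 9.09 and 10.22 against 9.13 and 8.46, so that its groups overlapped, and its difference of -0.67 ± 0.32 did not pass (adjusted p = 0.104). Both Aqp2 probes were highest in healthy kidney 3.

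For Kcnj1 a second probe repeated the split, at 7.82, 7.73 and 7.67 in healthy kidneys, 8.14 in UUO kidney 1 and 5.99 in UUO kidney 2 (-0.67 ± 0.41, adjusted p = 0.209). The dimmest probe went another way. It was at 5.58, 6.16 and 6.36 in healthy kidneys, the first of these not above background. In neither UUO kidney was it above background, so it was at least 1.5-fold lower (limma adjusted p = 8.82e-05). The files do not say which part of the transcript each probe reads. A second Egf probe was not above background in any sample, healthy kidneys included (4.98 to 5.55), and was not kept.

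**Figure D3:**
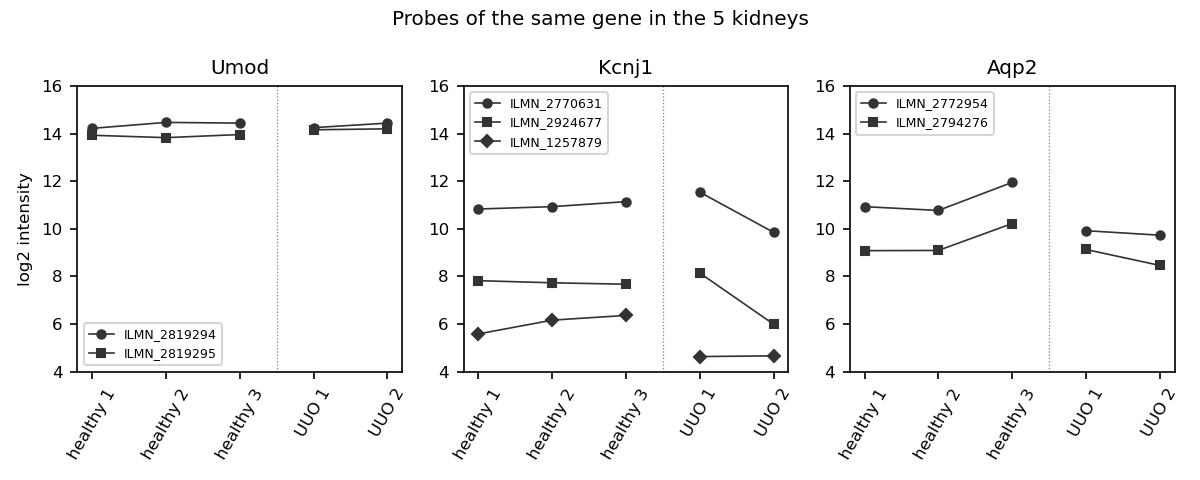
Log2 intensity (y axis) of every kept probe of Umod, Kcnj1 and Aqp2 in the 3 healthy and 2 UUO kidneys (x axis); lines join the values of 1 probe within a group and carry no order. The 2 brighter Kcnj1 probes are higher in UUO kidney 1 and lower in UUO kidney 2 than in every healthy kidney. The dimmest is near background, and not above it in healthy kidney 1 or in either UUO kidney.

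Among genes that share a segment with Umod, Egf and Kcnj1, of 13 other measured thick ascending limb genes 3 fell, none rose and 10 did not pass, with a median change of -0.66. Tmem207, a small membrane protein of the kidney, was at 7.97 to 8.44 in healthy kidneys and 5.28 and 4.73 in UUO kidneys, neither of them above background, and so was at least 6.45-fold lower (adjusted p = 3.99e-07). Slc5a3, which carries the osmolyte myo-inositol into cells, fell (-0.48, adjusted p = 0.0204), and so did the calcium-sensing receptor Casr (-0.66, adjusted p = 0.0259). Slc12a1 was at 12.63 to 12.83 in healthy kidneys and 12.35 and 11.91 in UUO kidneys, and did not pass (-0.61 ± 0.55, adjusted p = 0.410). Without UUO kidney 1, 7 of the 13 fell (median -0.97), and without UUO kidney 2 it was 2 (median -0.25). In the 5 kidneys alone 2 fell.

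Around Calb1, 20 other genes of the distal convoluted tubule and of calcium or magnesium handling were measured, of which 3 rose and 5 fell (median -0.20). The magnesium channel Trpm6 rose by 1.85 ± 0.24 (adjusted p = 9.4e-05), and the calcium channel Trpv5 (0.72, adjusted p = 0.00847) and the kinase Oxsr1 (0.59, adjusted p = 0.0193) rose too. Kl, klotho, a coreceptor for a phosphate-regulating hormone, fell from a mean of 12.00 to 10.59 (-1.41 ± 0.34, adjusted p = 0.00521). The homeobox gene Emx1 (-1.24), the sodium pump subunit Fxyd2 (-1.39), the calcium pump Atp2b1 (-0.73) and the transcription factor Tfap2b (-0.63) fell as well. Slc12a3 did not pass (0.41 ± 0.26, adjusted p = 0.217). The counts turned with the kidney left out: 1 rose and 6 fell without UUO kidney 1, and 6 rose and 2 fell without UUO kidney 2. In the 5 kidneys alone 2 rose and 1 fell.

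Beside Aqp2, Aqp3 and Klk1, 24 genes of principal cells or of the vasopressin or aldosterone response were measured. Of these, 5 rose and 3 fell, with a median of 0.38. The list is not confined to principal cell markers, and 9 of the 24 were lower in healthy kidney than in healthy lung. Fxyd5, a regulator of the sodium pump, rose by 2.57 ± 0.30 (adjusted p = 3.55e-05), the sodium channel subunit Scnn1b by 1.49 ± 0.32 (adjusted p = 0.00278) and the prostaglandin E synthase Ptges by 1.60 ± 0.38 (adjusted p = 0.00483). The ubiquitin ligase Nedd4l (0.51) passed too, and so did the adenylyl cyclase Adcy3, for which no fold is given because no kidney was above background. Like Aqp2 and Aqp3, Aqp4 fell (-2.44 ± 0.64, adjusted p = 0.00848). The vasopressin receptor Avpr2, not above background in either UUO kidney, was at least 1.39-fold lower (adjusted p = 0.00713). The protease Prss8, which activates the sodium channel, also fell (-1.03). Scnn1a, the partner subunit of Scnn1b, did not pass (0.33 ± 0.24, adjusted p = 0.280). Without UUO kidney 2, 9 of the 24 rose and 2 fell, and in the 5 kidneys alone 3 rose and 1 fell.

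Intercalated cells, the acid- and base-secreting neighbours of principal cells, had 3 of 15 genes higher and none lower (median -0.09): the receptor Kit (1.40 ± 0.22, adjusted p = 0.000368), the transcription factor Foxi1 (0.63 ± 0.17, adjusted p = 0.00846) and Aqp6 (0.84, adjusted p = 0.0285). This count depended on the kidney, with 1 higher and 5 lower without UUO kidney 1, 7 higher and none lower without UUO kidney 2, and 1 higher and 1 lower in the 5 kidneys alone. Across the whole aquaporin family, 1 of 8 genes other than Aqp2 and Aqp3 rose, Aqp6, and 3 fell, Aqp4, Aqp11 (-2.42 ± 0.58, adjusted p = 0.00538) and Aqp7 (-1.23, adjusted p = 0.0136). Among healthy kidneys Aqp6 was above background in healthy kidney 3 alone, at 5.83 against 5.87 in UUO kidney 2. The size of its rise therefore depends on background values. Aqp1, the water channel of the proximal tubule and thin limb, did not pass (-0.32, adjusted p = 0.239). Of the 8, 2 rose and 1 fell without UUO kidney 2, whereas none rose and 3 fell without UUO kidney 1 and in the 5 kidneys alone.

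Egf fell while several of its partners rose. Of 8 other measured ligands, receptors and processing genes of the EGF family 4 rose and none fell, with a median of 0.79. The sheddase Adam17 rose by 0.78 ± 0.13 (adjusted p = 0.000524), the receptors Erbb2 by 0.80 ± 0.19 (adjusted p = 0.00443) and Egfr by 1.05 ± 0.33 (adjusted p = 0.0211), and the ligand Hbegf by 1.54 ± 0.43 (adjusted p = 0.0114). The ligand Btc had a difference of -0.08, which did not pass. Without UUO kidney 2, 2 of these genes rose, and in the 5 kidneys alone 3 rose and 1 fell.

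Klk1 belongs to a cluster of closely related kallikreins. Among 12 other kallikrein and kinin genes 5 fell and none rose (median -0.48): Ace, the kinin-degrading enzyme (-1.69 ± 0.18, adjusted p = 2.18e-05), and the kallikreins Klk1b24 (at least 1.71-fold lower, not above background in either UUO kidney, adjusted p = 0.000717), Klk1b27 (-1.52, adjusted p = 0.00733), Klk1b8 (-1.12) and Klk1b21 (-0.65). Klk1b5 and Klk1b26, bright in kidney like Klk1, did not pass (-0.48 each). Of the 12, 3 fell without UUO kidney 2 (median -0.28), without UUO kidney 1 it was 7 (median -0.85), and in the 5 kidneys alone 4 fell and 1 rose. These sequences are near-identical, and whether a probe also binds the transcripts of its relatives was not tested. Of 6 other potassium channel genes, Kcnk1 rose (1.26 ± 0.25, adjusted p = 0.00161), and Kcnj15 (-0.88 ± 0.18, adjusted p = 0.00162) and Kcnk5 (-1.15 ± 0.30, adjusted p = 0.00927) fell. Of the 6, 1 fell without UUO kidney 2.

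**Figure D4:**
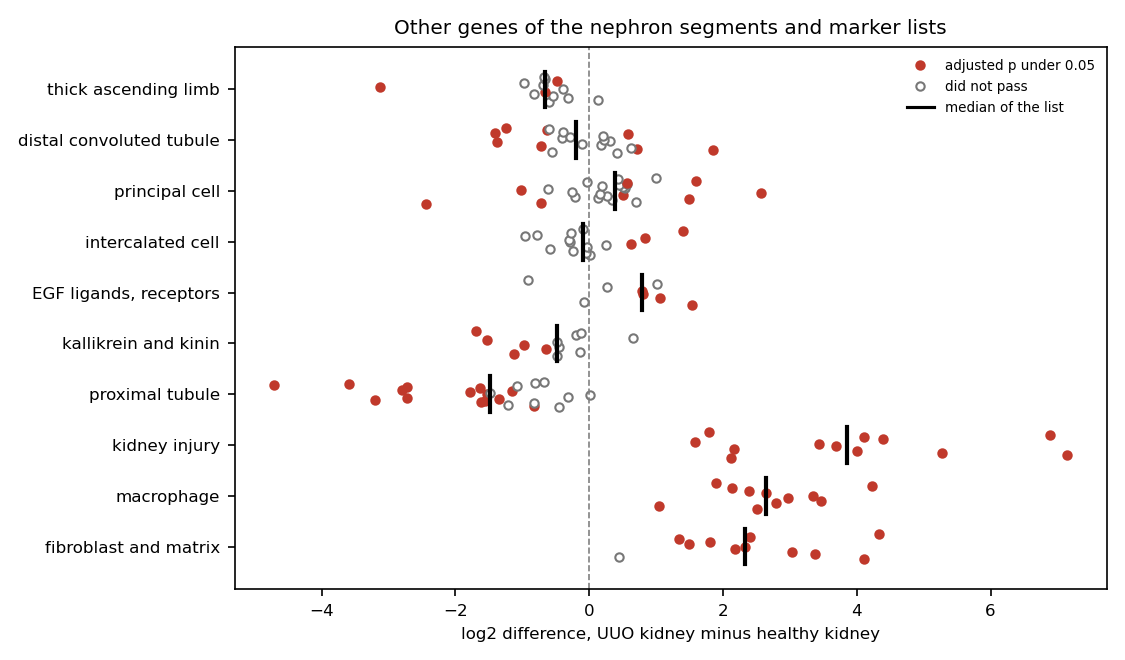
Log2 difference between UUO and healthy kidney (x axis) of each gene of 10 lists, the 6 described genes left out; filled points passed at an adjusted p under 0.05, open points did not, and vertical bars are list medians; genes not above background in a group are drawn at their measured difference. The medians are -0.66 for thick ascending limb, -0.20 for distal tubule and 0.38 for principal cell and vasopressin or aldosterone response genes. These lie between -1.49 for proximal tubule markers and 3.85 for injury markers.

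The later segments are set here beside the rest of the organ, with no test of the difference. Proximal tubule markers fell in 14 of 23 and rose in none (median -1.49), with a summed intensity of 164300 to 167500 in healthy kidneys and 92100 and 46410 in UUO kidneys. Without UUO kidney 2 it was 9 of 23 (median -0.64), without UUO kidney 1 it was 17 (median -2.11), and in the 5 kidneys alone 11. Cyp4b1 fell by 4.71 on the log2 scale and Kap fell too (-2.72), and both are also sex-biased in mouse kidney. The amino acid transporter Slc7a13 was at least 4.12-fold lower, and the endocytic receptor Lrp2 did not pass (-0.45, adjusted p = 0.171). What sex contributed to the falls of this list was not tested. All 12 injury markers rose, among them Vcam1 (from a mean of 7.39 to 11.39, adjusted p = 3.6e-08), Cd44 (at least 10.1-fold, adjusted p = 1.33e-06), Lcn2 (7.15 ± 0.82, adjusted p = 3.3e-05) and Havcr1 (2.12 ± 0.61, adjusted p = 0.0136), as did all 11 macrophage markers and 10 of 11 fibroblast and matrix markers. Of the healthy kidneys only healthy kidney 3 had Lcn2 above background, so the size of its rise depends on background values. Its UUO kidneys were at 11.13 and 14.76. Havcr1 was at 9.23 to 9.68 in healthy kidneys, 10.08 in UUO kidney 1 and 12.94 in UUO kidney 2.

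After obstruction the genes were still far above lung. Relative to the lungs of UUO mice, where no probe used for these genes was above background in any sample, UUO kidney was at least 470-fold higher for Umod, 184-fold for Klk1, 37.5-fold for Egf, 37.4-fold for Kcnj1, 20.5-fold for Aqp2 and 7.75-fold for Aqp3. All 6 passed in limma with adjusted p-values of at most 3.22e-06, where 24.7% of all genes were higher. Here too this only describes genes that were chosen for kidney. Between the lungs of UUO mice and healthy lungs none of the 6 passed in limma, and none had an unadjusted p under 0.05, while 11% of all genes passed. The test of the kidney change against the lung change passed for Aqp2 alone (-1.43 ± 0.36, adjusted p = 0.0111), where 11.1% of all genes passed with the kidney change the lower. Egf (-1.10 ± 0.48, adjusted p = 0.107) and Aqp3 (-1.15 ± 0.45, adjusted p = 0.0783) did not pass, and since Aqp2 and Egf were not above background in either lung group, their lung change was not measured.

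Some lungs held signal of these genes. Bleomycin lung 1 carried 5 of the 6 kidney genes above background: Umod at 9.03, Klk1 at 7.14, Kcnj1 at 5.75, Egf at 5.66 and Aqp3 at 5.39, with Aqp2 at 4.44 not above background. Slc12a1 was at 7.0 in the same lung, and 10 of 23 proximal tubule markers were above background there against 4 to 8 in the other lungs. In bleomycin lung 2 only Umod (5.62) was above background, and in bleomycin lung 3 Egf (5.06) and Aqp3 (5.73). The second Umod probe was at 8.32 in bleomycin lung 1 but not above background in bleomycin lung 2, at 4.80. In the healthy lungs Klk1 (5.30 in lung 1) and Aqp3 (5.66 in lung 2) each passed once. None of the 6 passed in limma between bleomycin and healthy lung, where 43.1% of all genes did; 1, Umod, had an unadjusted p under 0.05 (at least 2.14-fold higher, since no healthy lung was above background; adjusted p = 0.0798). The median change of the 6 was 0.41, and 0.08 without bleomycin lung 1. Without bleomycin lung 3, Umod passed (limma adjusted p = 0.00741). That lung differs from the other bleomycin lungs and from the healthy lungs by Xist at 8.86 and Eif2s3y not above background. The part of sex was not tested. The source of these signals was not tested.

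Genes with the pattern closest to the mean of the 6 over all 14 samples were Fxyd2 (Pearson r of 0.9987), the amino acid transport subunit Cltrn (0.9982), Klk1b27 (0.9977), Mettl7a2 (0.9975) and Wfdc15b (0.9973). The 5 kidneys and 9 lungs form separate clusters in these values, and 343 genes had an r over 0.95, so the r describes the contrast of organs more than that of kidneys. Within the kidneys they differed: Fxyd2 (-1.39), Cltrn (-1.51) and Klk1b27 (-1.52) fell with obstruction, while Mettl7a2 (-0.53) and Wfdc15b (-0.41) did not pass.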

How the data were processed

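Total RNA was hybridized as biotinylated cRNA to Illumina arrays, per the labels' protocols. The deposited values are raw probe intensities, each with a detection p-value deposited by the authors, and the submitters' processing notes name GenomeStudio 5.0, with earlier steps not given in the sources used here. An alternative used the authors' matrix of background-subtracted intensities, whose scaling is unstated. Intensities were background corrected (limma 3.58.1 in R 4.3.3, normexp with the detection p-values, offset 16), quantile normalized over 15 arrays and put on the log2 scale. The 2 arrays of UUO-mouse lung replicate 2 were averaged, which gave 14 samples. By the platform annotation 34885 of the 45281 probes had a single symbol, 18 had several and 10378 had none; 34807 were matched by ID to the RefSeq gene table. The filter, a detection p below 0.01 in 2 or more samples, left 21048 probes, 18022 of them with 1 gene, and each gene was represented by its probe of highest mean.

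limma fitted 5 group means with eBayes (9 residual and 3.1 prior degrees of freedom), with Benjamini-Hochberg adjustment over 11648 genes at 0.05. A group was taken as not above background where no sample had a detection p below 0.01. On simulated data with this comparison's sample sizes, 64% of genes changed by 1 on the log2 scale between UUO and healthy kidney were called, 92% at 1.5 and 98% at 2 (11648 genes). The simulation changed only 50 genes at each size and gave a gene the same spread in every group. In the data 43% of genes passed and the spread differed between groups, so these rates need not hold for the real comparison. The members and gene lists were chosen with earlier results of these data known, so neither is independent support. Named from each list were the 2 rises and 2 falls with the smallest adjusted p, and always Slc12a1, Slc12a3, Scnn1a, Avpr2, Foxi1, Lrp2, Havcr1, Lcn2, Xist and Eif2s3y; other list genes, among them all that passed in the thick ascending limb, distal tubule, collecting duct, EGF, aquaporin, kallikrein and potassium channel lists, were named after their values were seen. For podocyte, macrophage, fibroblast, sex-biased and liver lists counts are given with few or no names. Likeness over the 5 kidneys was left out, since 5 samples are too few for a correlation.

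Pairing was checked by correlating deviations from the group means: organs of the same mouse gave -0.122 to 0.185 (median -0.034, 4 pairs), and samples that share only a number -0.566 to 0.169. For 2 of the 4 mice with both organs the replicate numbers agree and for the other two they differ, and no number links healthy to UUO mice, so no block was used. Alternatives were other background corrections, median scaling, the matrix values, normalization within the organ, 2 other filters, all probes, array weights, an intensity trend, a replicate block, fits on only the compared groups, the animal as a random block, either duplicate array and each sample left out; fits without bleomycin lung 1 or healthy lung 3 were added after seeing the data.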

Additional observations from a re-analysis of the deposited data

Results flagged for a closer look

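Aqp2, the vasopressin-regulated water channel of the collecting duct, was picked out because the effect of obstruction differed between kidney and lung in a test of the difference itself: the kidney change minus the lung change was -1.43 ± 0.36 on the log2 scale (limma adjusted p = 0.0111). With the probe used, both UUO kidneys were below every healthy kidney. With the second Aqp2 probe the kidney groups overlapped and the kidney change did not pass (-0.67 ± 0.32, limma adjusted p = 0.104). The probe used was not above background in any lung. Its lung change was thus not measured, and the difference rests on the kidney change of this probe.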

How the results depend on the processing

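Between UUO and healthy kidney, Egf, Aqp2 and Aqp3 passed under all 15 other settings, samples left out excepted; leaving out 1 sample gave 1 to 4 genes that passed, the 1 without UUO kidney 2 and the 4 without UUO kidney 1. With the mean of all kept probes Kcnj1 passed as well (-0.78, adjusted p = 0.0376). Umod never passed. Over the 15 other settings it ranged from -0.54 to 0.12, and was above 0 with median scaling (0.033) and the mean of all probes (0.12). With samples left out Umod was at -0.13 to 0.066, and Kcnj1 ranged from -1.12 to 0.57. The kidney change minus the lung change of Umod ranged from -0.54 to 0.093 over the other settings. In the kidney change minus the lung change, 3 genes passed without background correction, with normexp at offset 50 and with the deposited matrix values (Egf and Aqp3 beside Aqp2), and 1 to 3 with samples left out, among which Kcnj1 ranged from -1.04 to 0.65; Umod was at 0.093 with the mean of all probes. Between bleomycin and healthy lung 3 genes passed with the matrix values (Umod, Egf, Aqp3) and 3 with array weights (Umod, Kcnj1, Klk1), and 0 to 1 with samples left out. All genes that passed between UUO-mouse and healthy lung numbered 1278, 2926 with array weights and 306 to 1279 with samples left out. The causes were not tested. Median scaling moved the median change of all genes in UUO kidney from 0.11 to 0.33 and the share of calls that were higher from 60.6% to 78%, and the matrix values moved them to -0.21 and 34.6%. The replicate block, on numbers that pair the organs of only 2 of 4 mice and no healthy with a UUO mouse, kept 3 genes in UUO kidney (Egf -1.50, Aqp2 -1.32, Aqp3 -1.41) and changed no call of these genes in any comparison. With the animal as a random block 3 passed as well. The 2 UUO kidneys, the sex of the mice, and for Aqp2 and Kcnj1 disagreement between probes, limit what the kidney comparison can show.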

Other observations

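Among podocyte markers, a cell type outside the tubule, 3 of 8 genes rose in UUO kidney and 1 fell (median 0.49). Synpo, which organizes the actin of podocyte foot processes, rose by 1.62 ± 0.16 (adjusted p = 1.41e-05) and the cell cycle inhibitor Cdkn1c by 0.81 ± 0.17 (adjusted p = 0.00211). Plce1 passed with no kidney above background. Thsd7a, a podocyte surface protein above background in healthy kidney 2 alone of the 5 kidneys, was at least 1.21-fold lower (adjusted p = 0.0440). Without UUO kidney 2, 5 of the 8 rose, and without UUO kidney 1 it was 2; none fell in either case. In the 5 kidneys alone 2 rose and none fell. Of 7 liver transcripts none passed between UUO and healthy kidney in the fit on all samples, whose pooled spread includes lungs with and without these transcripts, while 4 were lower in UUO kidney when only the 5 kidneys were fitted (median -1.62 in both fits); 1 to 7 of them were above background in 9 of the 14 samples.

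Of 11 macrophage markers all rose in UUO kidney, among them the mannose receptor Mrc1 (3.35 ± 0.20, adjusted p = 6.07e-07) and Aif1 (2.39 ± 0.19, adjusted p = 2.26e-06). Of 11 fibroblast and matrix markers 10 rose, with Thy1 at 4.33 ± 0.44 (adjusted p = 1.63e-05) and the collagen gene Col3a1 at least 5.29-fold higher (adjusted p = 2.06e-06). Among healthy kidneys Thy1 was above background in healthy kidney 3 alone, so the size of its rise depends on background values. With either UUO kidney left out, 11 macrophage markers and 9 fibroblast and matrix markers rose. In this setting, without UUO kidney 1 or without UUO kidney 2, injury markers rose in 12 and 11 of 12.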
